A study of Mus musculus with 12 samples.

Results

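The insulin-like growth factor (IGF) axis was examined in mouse tongue tumours through 9 genes, namely the ligands Igf1 and Igf2, the receptor Igf1r and the binding proteins Igfbp2, Igfbp3, Igfbp4, Igfbp5, Igfbp6 and Igfbp7. They were chosen by name, with earlier results of these data known. All 12 probes annotated to them were taken, out of 25697 probes and 16593 annotated genes in all. Expression was measured on Illumina bead arrays in 7 tongue tumours and 5 normal tongues. The tumours arose in animals that received 200 µg/mL of 4NQO, a chemical that damages DNA, and 500 µg/mL of arecoline, an alkaloid of the areca nut, while the animals with normal tongues received DMSO. Both treatments ran for 8 weeks and a rest of 20 weeks followed. All mice were of strain B6 and their age is given as 8 months. The labels do not say that each piece came from its own animal, so the p-values measure the spread between pieces of tissue.

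IGF1 and IGF2 are secreted peptides that activate the receptor tyrosine kinase IGF1R, which signals through insulin receptor substrates to PI3K and AKT and promotes growth and survival. IGF-binding proteins hold the ligands outside the cell, which can keep them from the receptor or prolong their life, and proteases that cut the binding proteins set the ligands free. In tongue, as in other skeletal muscle, IGFs promote the differentiation and growth of muscle fibres, while fibroblasts, endothelium and epithelium make ligands and binding proteins of their own.

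Signal is given in log2 units after background correction and quantile normalisation, and each difference is tumour minus normal. Tumours had 14734 to 15375 probes above background and normal tongues 14841 to 15050. Arrays correlated at 0.925 to 0.984 among tumours, 0.974 to 0.996 among normals and 0.805 to 0.911 between the groups, over 15694 probes. All 12 skeletal muscle markers were lower in tumours and 7 of 8 squamous epithelium markers were higher. Tumour 2, at a mean of 9.80, and normal 1, at 13.31, stood apart in salivary gland markers. The remaining arrays had at most 6.6 (tumours) and 7.03 to 7.69 (normals), and results whose call or direction changes without these arrays are given with and without them.

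Of the 9 genes, Igfbp3 and Igfbp7 rose in tumours, while Igf1, Igf2, Igfbp4 (by 1 of its 2 probes), Igfbp5 and Igfbp6 fell. No probe of Igf1r or Igfbp2 passed the test. The largest changes were a 4.36-fold rise of Igfbp3, a 5.03-fold fall of Igfbp6 and a 4.72-fold fall of Igfbp5. All 11 probes that could be tested lay above background on all 12 arrays, and the remaining probe, the second for Igfbp7, lay above background on none. By limma with a Benjamini-Hochberg adjusted p under 0.05 over 15694 probes, 2 of the 11 were higher and 5 were lower. Over all probes 32.5% were higher and 22.8% lower, so that 55.3% passed the test in either direction. Higher calls made up 58.7% of all calls, but 47.5% under cyclic loess and 16.1% under centring on reference genes. The share of IGF-axis probes called, 63.6%, is near that background and is not read as a property of the axis. The median difference of the 11 probes was −0.55, against 0.07 over all probes tested. For 5 probes (45.5%) the groups were fully apart, 2 with every tumour above every normal and 3 with every tumour below, where the shares over all probes were 37.0% in either direction, 20.6% above and 16.3% below.

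**Figure D1:**
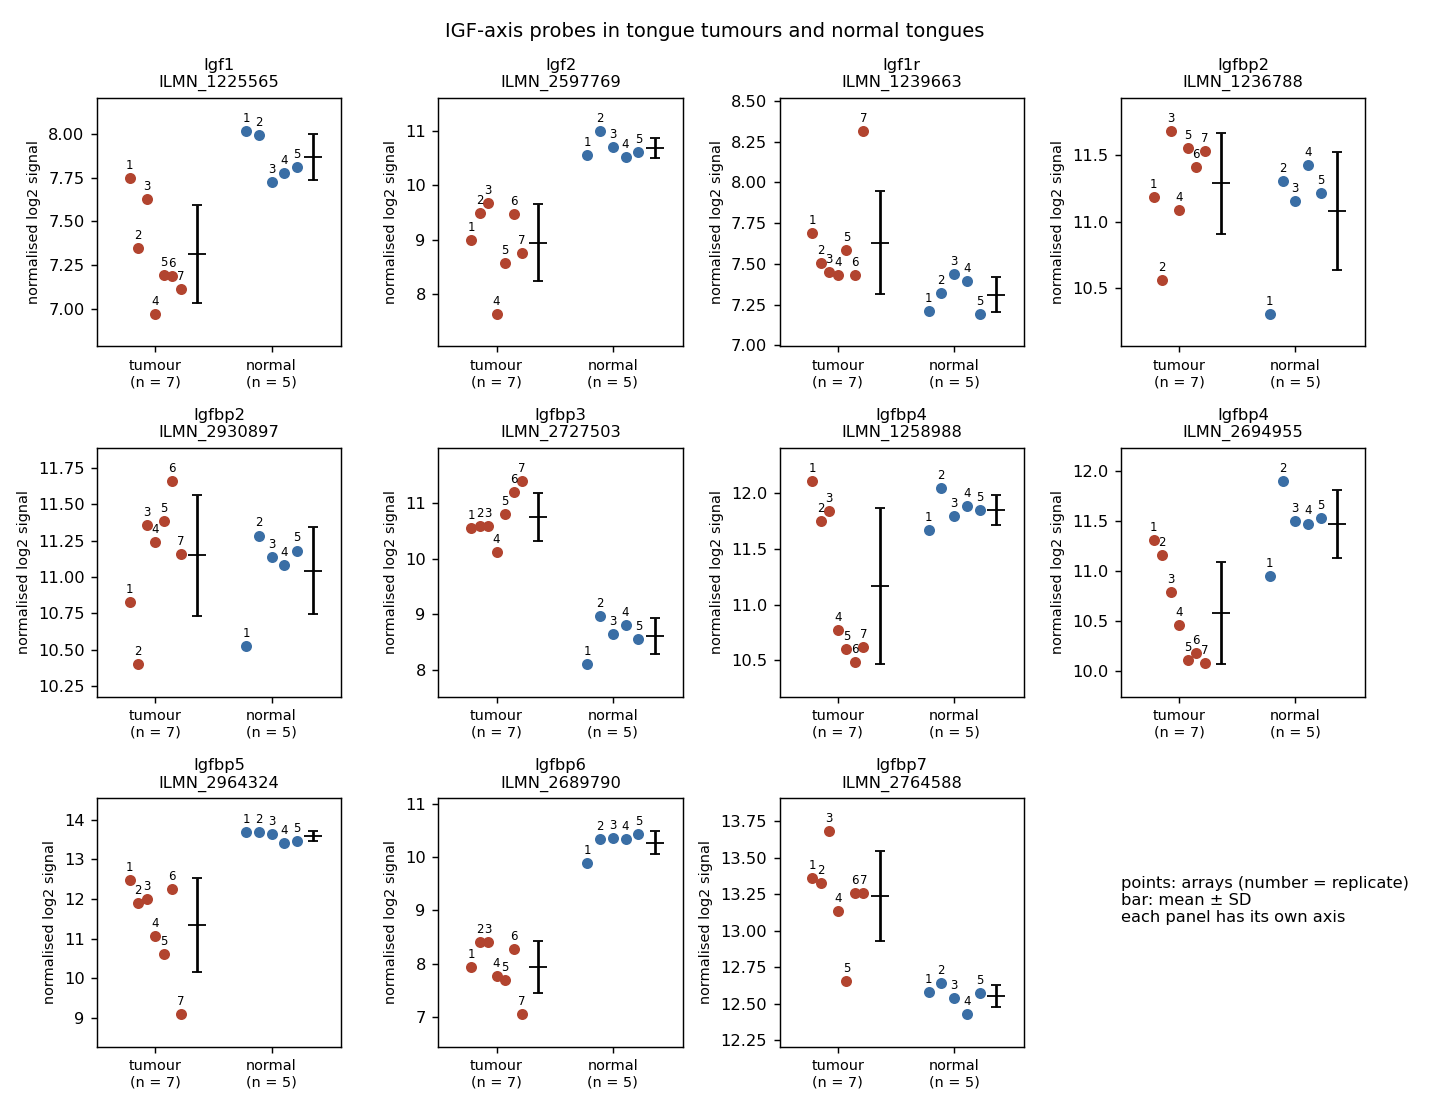
Normalised log2 signal of the 11 tested IGF-axis probes on each array, tumours (red, n = 7) left of normal tongues (blue, n = 5), with the mean and SD as bars and the replicate number at each point; every panel has its own axis. The groups are fully apart for Igf2, Igfbp3, Igfbp5, Igfbp6 and Igfbp7, and tumours are spread more widely than normals for Igfbp5.

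Both ligands fell. Igf2 (probe ILMN_2597769), the fetal growth factor of the family, which stays active in regenerating muscle, had a lowest log2 signal of 7.63, a median of 9.0 and a highest of 9.68 in tumours. In normal tongues its values were 10.57, 11.01, 10.72, 10.53 and 10.62. All 7 tumours lay below all 5 normals. Igf2 averaged 8.94 ± 0.71 (SD, n = 7) in tumours and 10.69 ± 0.19 (SD, n = 5) in normal tongues, a log2 difference of −1.75 (SE 0.30) or a 3.36-fold fall (95% interval 2.16 to 5.23, limma adjusted p = 0.000246). Tumour 4 had the lowest signal, with −3.06 relative to the normal mean, and tumour 3 the highest. The 12 muscle markers were lower too, with array means of 13.58 to 14.14 for normals. In tumours 1 to 7 these means were 9.93, 12.67, 9.15, 11.07, 8.38, 8.80 and 8.47. The part of the muscle markers in the fall of Igf2 was not tested. Fewer cells of a type and less RNA per cell cannot be told apart in these whole pieces of tissue.

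Igf1 (probe ILMN_1225565), the growth factor that mediates much of the action of growth hormone, changed less. Its tumour values ran from 6.97 through a median of 7.19 to 7.75, and the normal values were 8.02, 7.99, 7.73, 7.78 and 7.81. Of the tumours, 6 lay below every normal and tumour 1, at 7.75, lay just within the normal range. The means were 7.31 ± 0.28 (SD, n = 7) in tumours and 7.87 ± 0.13 (SD, n = 5) in normal tongues. The difference of −0.55 (SE 0.13) is a 1.47-fold fall (95% interval 1.21 to 1.78, limma adjusted p = 0.00265).

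The receptor did not pass the test. Igf1r (probe ILMN_1239663), the kinase that both ligands activate, had 7.43 as its lowest, 7.51 as its median and 8.32 as its highest log2 signal in tumours. Normal tongues had 7.21, 7.32, 7.44, 7.39 and 7.20. Of the 7 tumours, 5 lay above every normal, and tumour 7 stood apart from the other tumours. The means were 7.63 ± 0.32 (SD, n = 7) in tumours and 7.31 ± 0.11 (SD, n = 5) in normals, a difference of 0.32 (SE 0.14, 95% interval 0.02 to 0.62, limma adjusted p = 0.0701). Without tumour 7 the difference was smaller, 0.21, but passed the test at an adjusted p = 0.0338. Under centring on reference genes it was −0.09 and did not pass.

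Among the binding proteins the largest rise was in Igfbp3 (probe ILMN_2727503), the main carrier of IGFs in blood, which is also made by epithelial cells and fibroblasts. Tumour signals ran from 10.12 through a median of 10.59 to 11.39, and the normal signals were 8.12, 8.97, 8.65, 8.81 and 8.56. The lowest tumour lay more than a whole log2 unit above the highest normal. Igfbp3 averaged 10.74 ± 0.43 (SD, n = 7) in tumours and 8.62 ± 0.32 (SD, n = 5) in normal tongues. The log2 difference of 2.12 (SE 0.21) is a 4.36-fold rise (95% interval 3.19 to 5.94, limma adjusted p = 2.55e-06), the 142nd largest rise among the 15694 probes. Of 8 squamous epithelium markers, 7 were higher too, while Krt14 was lower (−0.30), with all tumours below all normals. The 8 markers averaged 12.10 to 12.81 in tumours and 10.35 to 10.76 in normals. In tumours 1 to 7 Igfbp3 read 10.54, 10.59, 10.58, 10.12, 10.79, 11.19 and 11.39. The squamous marker means in the same tumours were 12.23, 12.28, 12.33, 12.41, 12.10, 12.16 and 12.81. The part of these markers in the rise was not tested.

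Igfbp7 (probe ILMN_2764588), a matrix-associated family member that binds IGFs weakly and is abundant in vessel walls, rose by a smaller step. Its tumour signals ran from 12.66 through a median of 13.26 to 13.68, and the normals had 12.58, 12.64, 12.54, 12.43 and 12.58. All tumours lay above all normals, although tumour 5, at 12.66, was only just above normal 2 at 12.64. The means were 13.24 ± 0.31 (SD, n = 7) in tumours and 12.55 ± 0.08 (SD, n = 5) in normals. The difference was 0.69 (SE 0.14), a 1.61-fold rise (95% interval 1.32 to 1.97, limma adjusted p = 0.000774). Under centring on reference genes, where the median of all probes moved from 0.07 to −0.34, the Igfbp7 difference was 0.22 and did not pass (adjusted p = 0.144), and under cyclic loess it was 0.40 and passed (adjusted p = 0.0263). Of 8 endothelial markers tested, 6 were lower in tumours and none higher. Of 6 smooth muscle and pericyte markers, 1 was higher, 2 lower and 3 not called. Over all genes tested 32.5% were higher and 23.6% lower. The part of either list in the rise of Igfbp7 was not tested. The second Igfbp7 probe (ILMN_2634286) read 5.81 to 5.98 in tumours and 5.83 to 5.99 in normals, not above background on any array, and gives no second measurement.

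The deepest falls were in Igfbp6 and Igfbp5. Igfbp6 (probe ILMN_2689790), which binds IGF2 in preference to IGF1, had tumour signals from 7.06 through a median of 7.93 to 8.41. Its normal values were 9.89, 10.34, 10.35, 10.33 and 10.43. Every tumour lay more than a whole log2 unit below every normal. The means were 7.94 ± 0.49 (SD, n = 7) in tumours and 10.27 ± 0.22 (SD, n = 5) in normals. The difference of −2.33 (SE 0.21) is a 5.03-fold fall (95% interval 3.65 to 6.94, limma adjusted p = 1.55e-06).

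Igfbp5 (probe ILMN_2964324), a binding protein of muscle and connective tissue that attaches to the extracellular matrix, had the widest spread among tumours. The tumour values, in replicate order, were 12.48, 11.89, 11.99, 11.08, 10.61, 12.26 and 9.11. The normal values were 13.69, 13.69, 13.65, 13.41 and 13.48. All tumours lay below all normals, tumour 1 by the least and tumour 7 by the most. The SD was 1.19 (n = 7) in tumours and 0.13 (n = 5) in normals, a ratio of 9.08. The means were 11.35 in tumours and 13.59 in normals, a difference of −2.24 (SE 0.48) or a 4.72-fold fall (95% interval 2.29 to 9.73, limma adjusted p = 0.00154). Without tumour 7 the fall was still called, at −1.88.

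**Figure D2:**
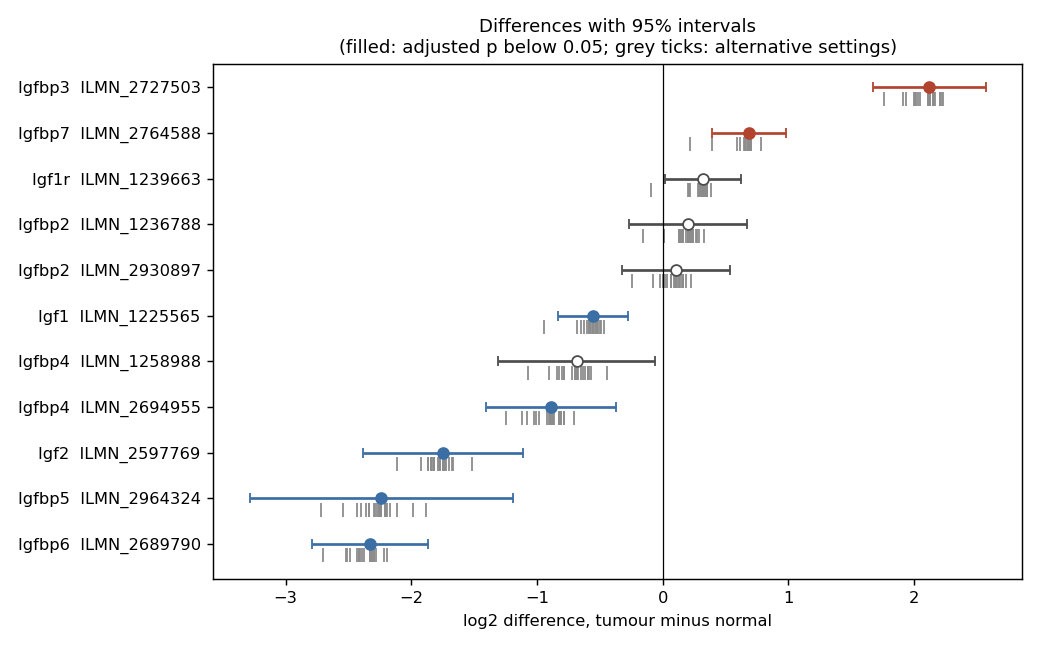
Tumour minus normal log2 difference of each tested probe with its 95% interval, filled where the adjusted p was under 0.05 (red higher, blue lower) and open where it was not; grey ticks mark the value under each alternative setting. Igfbp3 at 2.12 and Igfbp6 at −2.33 form the ends, and the ticks cross 0 only for Igf1r and the 2 Igfbp2 probes.

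Igfbp4, whose product mostly restrains IGF action and is cut by the protease PAPP-A, has 2 probes that gave different calls. Probe ILMN_2694955 had 11.31, 11.16, 10.78, 10.45, 10.11, 10.18 and 10.07 in tumours 1 to 7, and 10.95, 11.90, 11.50, 11.47 and 11.53 in the normals. It fell by 0.89 on the log2 scale (SE 0.24), or 1.85-fold (95% interval 1.29 to 2.65, limma adjusted p = 0.0065), with 5 of 7 tumours below every normal. Probe ILMN_1258988 had 12.11, 11.75, 11.84, 10.77, 10.60, 10.49 and 10.62 in tumours 1 to 7, and 11.68, 12.05, 11.80, 11.89 and 11.85 in the normals. Tumours 1, 2 and 3 thus lay in or above the normal range by this probe, and the other 4 tumours lay about a whole log2 unit below it. Its difference of −0.68 (SE 0.29, 95% interval −1.31 to −0.06) did not pass at an adjusted p = 0.0603. It passed without tumour 1 (−0.84), without tumour 2 (−0.78) and without tumour 3 (−0.80). The mean over both probes, which includes the called one, also passed (−0.79).

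Igfbp2, a binding protein of fetal tissue and of many tumours, showed no difference that passed the test by either probe. Probe ILMN_1236788 ran from 10.56 through a median of 11.41 to 11.68 in tumours, and read 10.31, 11.31, 11.15, 11.43 and 11.21 in normals. Its difference was 0.21 (SE 0.22, 95% interval −0.26 to 0.68, limma adjusted p = 0.452). Probe ILMN_2930897 ran from 10.40 through 11.24 to 11.66 in tumours, and read 10.53, 11.29, 11.14, 11.08 and 11.18 in normals. Its difference was 0.11 (SE 0.20, 95% interval −0.32 to 0.53, limma adjusted p = 0.682), so that a rise of over 1.6-fold lies outside both intervals. Tumour 2 and normal 1, the arrays with high salivary gland markers, were the lowest of their groups by both probes. With both left out the differences were 0.13 and 0.10, neither called (adjusted p = 0.38 and adjusted p = 0.562).

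In the RefSeq gene table (GRCm38.p6), Igfbp2 and Igfbp5 are next to each other on chromosome 1, on opposite strands. Igfbp5 fell in all 7 tumours while the Igfbp2 tumour values ran on both sides of the normal mean. Igfbp3 is likewise next to Igfbp1 on chromosome 11, and the Igfbp1 probe was not above background on any array.

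The windows around the start sites of the 3 genes with the largest changes are shown for their base composition and short motifs. RefSeq (GRCm38.p6) gives such windows, 250 bases before to 50 bases after each start, for all 9 genes, 13 windows in all. Capitals mark each match, on either strand, to the TATA box TATAAA, the GC box GGGCGG, the CCAAT box, the E-box CANNTG, the AP-1 site TGANTCA or the hypoxia response core ACGTG, and no 2 matches overlap in these windows. The order is Igfbp3 (chr11:7213874-7214173, minus strand), Igfbp5 (chr1:72874816-72875115, minus strand) and Igfbp6 (chr15:102143936-102144235, plus strand).
Igfbp3: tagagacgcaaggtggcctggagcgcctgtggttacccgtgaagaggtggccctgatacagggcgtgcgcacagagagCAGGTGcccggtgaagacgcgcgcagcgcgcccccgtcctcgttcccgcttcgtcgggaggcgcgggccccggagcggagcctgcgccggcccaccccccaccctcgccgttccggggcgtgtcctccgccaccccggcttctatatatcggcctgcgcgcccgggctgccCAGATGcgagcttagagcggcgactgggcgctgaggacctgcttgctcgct
Igfbp5: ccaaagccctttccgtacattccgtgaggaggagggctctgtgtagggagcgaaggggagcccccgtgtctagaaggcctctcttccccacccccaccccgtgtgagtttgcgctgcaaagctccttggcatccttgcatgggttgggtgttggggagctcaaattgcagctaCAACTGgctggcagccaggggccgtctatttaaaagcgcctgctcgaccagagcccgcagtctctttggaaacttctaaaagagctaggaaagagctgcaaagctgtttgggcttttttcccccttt
Igfbp6: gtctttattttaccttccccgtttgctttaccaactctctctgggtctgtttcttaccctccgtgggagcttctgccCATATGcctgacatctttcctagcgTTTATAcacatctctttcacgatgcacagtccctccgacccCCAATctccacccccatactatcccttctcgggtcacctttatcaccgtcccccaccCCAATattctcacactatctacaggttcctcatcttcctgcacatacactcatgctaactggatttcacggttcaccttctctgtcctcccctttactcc

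The Igfbp3 window was 71.7% G and C and held 2 E-boxes and no match to any other of the 6 motifs as spelled above. The Igfbp5 window was 56.3% G and C with 1 E-box. The Igfbp6 window was 49.7% G and C with 1 E-box, 2 CCAAT boxes and 1 TATAAA, the last on the opposite strand as TTTATA. The median over all 32851 windows was 52.7% G and C. An E-box was found in 72.3% of all windows, a CCAAT box in 37.4% and TATAAA in 13.6%, so the motifs seen here are common ones. Among the other 6 genes, GC boxes, present in 35.7% of all windows, were found for Igf2, Igf1r, Igfbp2 and Igfbp7, with 4 in the Igfbp7 window. These are letter matches, not measured binding.

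The tumours differed from each other in a partly shared order. For Igf2, Igfbp5 and Igfbp6 the 4 highest tumours were 1, 2, 3 and 6, and tumours 4, 5 and 7 were the 3 lowest. Relative to the normal mean, Igfbp5 stood at −1.10 to −1.69 in tumours 1, 2, 3 and 6, and at −2.51, −2.97 and −4.48 in tumours 4, 5 and 7. The mean of the fibroblast markers, of which 6 of 10 were lower, 1 higher and 3 not called, followed that division. Taken singly, Dcn, Lum, Pdgfra and Thy1 followed it, while Col1a1, Col1a2, Col3a1, Col6a1, Dpt and Mfap5 did not. Col1a1, for example, was 9.58 in tumour 2 but 10.07 in tumour 5 and 10.47 in tumour 7. Tumours 1, 2, 3 and 6 had a mean fibroblast signal of 9.95, 9.45, 9.64 and 9.43, tumours 4, 5 and 7 had 8.77, 8.76 and 8.66, and the normals had 9.99 to 10.63. All 10 fibroblast genes were bright enough to be tested, and their summed linear signal was 7851 to 21736 in tumours and 29353 to 36982 in normals. Endothelial markers had means of 8.26 to 8.56 in tumours 1, 2, 3 and 6, 7.84 to 8.23 in tumours 4, 5 and 7, and 8.85 to 9.01 in normals. Their division was narrow, with tumour 2 at 8.26 and tumour 5 at 8.23. The part of either marker list in the levels of these 3 genes was not tested.

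Igfbp3 did not follow that order, with its highest values in tumours 7 and 6 and its lowest in tumour 4. Tumour 7 combined the highest Igfbp3 and Igf1r with the lowest Igfbp5 and Igfbp6 of the 7 tumours. Igf1 and Igfbp4 shared another order, with tumours 1, 2 and 3 the 3 highest for Igf1 and for both Igfbp4 probes. Macrophage markers averaged 8.40, 8.92 and 9.03 in tumours 1, 2 and 3, lower at 7.69 to 8.17 in the other 4 tumours, and 8.83 to 9.39 in normals. Of the 5 macrophage markers tested, 1 was higher and 2 were lower. Mrc1 and Aif1 had tumours 1, 2 and 3 as the 3 highest, while Cd163, Adgre1 and Lyz2 did not. The fibroblast mean was also highest in tumours 1, 2 and 3, narrowly so with 9.45 in tumour 2 and 9.43 in tumour 6. The part of either list in these orders was not tested.

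**Figure D3:**
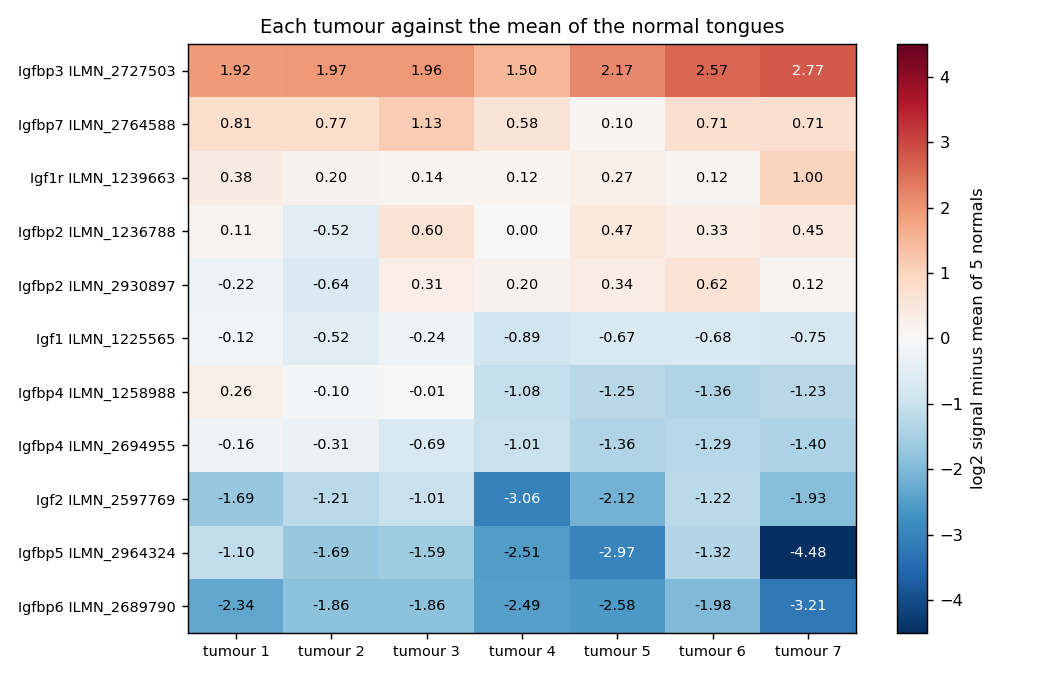
Log2 signal of each tumour (columns) minus the mean of the 5 normal tongues for each tested probe (rows, ordered by their mean difference), red above and blue below the normals. Igfbp3, Igfbp7 and Igf1r, the last not called, are above in all 7 tumours. Igf1, Igf2, Igfbp5, Igfbp6 and Igfbp4 by probe ILMN_2694955 are below in all 7. By probe ILMN_1258988 Igfbp4 is near the normals in tumours 1 to 3.

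Genes with the most similar variation were sought over the 12 arrays after each group mean was removed, among 10568 named genes, with Pearson's r as a description. The values are the highest of many and share arrays and normalisation, so they are high by choice. Igf1 was closest to Nfatc4, a transcription factor of the NFAT family (r = 0.973), and Igf2 to Klf2, a transcription factor of endothelium and lymphocytes (r = 0.940). Igf1r was closest to Ctnna1, alpha-catenin (r = 0.946), and then to Vdr, the vitamin D receptor (r = 0.928). Igfbp3 was closest to the anion exchanger Slc4a2 (r = 0.923). Igfbp4 was closest to the complement gene C2 (r = 0.982) and the chemokine Ccl19 (r = 0.960). Igfbp5 was closest to Lhfp (r = 0.892) and the VEGF receptor Flt1 (r = 0.880), Igfbp6 to the chemokine Ccl9 (r = 0.926), Igfbp2 to Shmt1 (r = 0.934), an enzyme of serine and folate metabolism, and Igfbp7 to the lysozyme Lyz1 (r = 0.918).

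Other genes of the pathway were taken from 7 lists. Of 69 listed genes 46 were tested, of which 9 were higher, 18 lower and 19 not called. Over all 10781 genes tested, 32.5% were higher and 23.6% lower, 56.1% in either direction. The median difference was −0.12 for the 46 genes and 0.07 for all genes. Each gene is represented by its brightest probe.

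Of the other receptors, Ghr, the growth hormone receptor, which drives Igf1 expression, fell in tumours. Its probe ILMN_1253504 averaged 9.10 ± 0.48 (SD, n = 7) in tumours and 10.12 ± 0.26 (SD, n = 5) in normals (difference −1.03, SE 0.22, limma adjusted p = 0.00125). Its second probe had −0.22 and was not called. Igf2r, the mannose 6-phosphate receptor that clears IGF2, averaged 9.15 ± 0.18 (SD, n = 7) in tumours and 9.24 ± 0.15 (SD, n = 5) in normals and was not called (−0.09, limma adjusted p = 0.48), although it was lower under centring on reference genes (−0.45). The probes for Insr, the insulin receptor, and its relative Insrr were not above background on any array. Of the carriers, Igfals, the acid-labile subunit of the circulating IGF complex, was higher by 0.59 (limma adjusted p = 0.0346), but 7 of the 12 arrays each ended that call when left out, as did the removal of normal 1 and tumour 2 together (0.60).

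Among 8 tested genes for proteases that cut binding proteins and inhibitors of those proteases, 3 were higher, 1 lower and 4 not called (median 0.56). Pappa, which encodes PAPP-A, and Pappa2 had no probe annotated to them. Plau, the urokinase, rose 5.53-fold, and averaged 9.87 ± 0.68 (SD, n = 7) in tumours and 7.41 ± 0.18 (SD, n = 5) in normals, with all tumours above all normals (limma adjusted p = 9.88e-06). Htra1, a secreted serine protease that cuts IGF-binding proteins, averaged 10.75 ± 0.39 (SD, n = 7) in tumours and 9.77 ± 0.39 (SD, n = 5) in normals (difference 0.97, SE 0.21, limma adjusted p = 0.00138), and its second probe was also higher (0.90). Mmp14, a membrane-bound metalloproteinase, rose by 0.85. Htra3, a relative of Htra1, fell by 1.80 with all tumours below all normals (limma adjusted p = 2.91e-06). Stc2, an inhibitor of PAPP-A, had a difference of 0.27 and was not called, with 8.67 on tumour 2 and at most 7.53 on the other tumours. Without tumour 2 the Stc2 difference was 0.0371, and the Stc1 probe was not above background on any array.

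Among 9 tested receptor adaptors, 2 were higher, 2 lower and 5 not called (median −0.13). Grb14 and Grb10, adaptors that restrain insulin and IGF1 receptors, both fell. Grb14 averaged 6.43 ± 0.56 (SD, n = 7) in tumours and 9.77 ± 0.06 (SD, n = 5) in normals, a difference of −3.35 (SE 0.23, limma adjusted p = 1.76e-07), and was above background in only 2 of 7 tumours, so that the size of the fall rests largely on signals not above background. Its second probe fell by 2.49. Grb10, an imprinted gene, fell by 1.18 with no overlap of the groups. Shc1, which links receptors to RAS, rose by 0.72 and Ptpn1, a phosphatase that switches off insulin and IGF1 receptors, by 0.75, both without overlap, while the second Shc1 probe rose by only 0.19. The insulin receptor substrates Irs1 (−0.13) and Irs2 (−0.11) were not called. Under centring on reference genes 7 of the 9 adaptors were lower, Irs1 (−0.55) and Irs2 (−0.48) among them.

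The PI3K, AKT and FOXO branch had 3 of 16 genes higher, 6 lower and 7 not called (median −0.02). The regulatory subunits Pik3r3 (−1.03) and Pik3r1 (−0.97) and Tsc2 (−0.62), which restrains mTOR, were lower. Eif4ebp1, the translation repressor that mTOR phosphorylates, was higher by 0.95 with no overlap. The count of higher genes in this branch was 1 under cyclic loess and under centring on reference genes, 1 without normal 5, and 5 on the deposited values and with array weights. Of 5 FOXO targets of muscle wasting, which IGF signalling represses in muscle, 4 were lower and 1 not called (median −0.88). These were the muscle ubiquitin ligases Fbxo32 (−2.02) and Trim63 (−1.52), the autophagy gene Gabarapl1 (−0.88) and the stress gene Sesn1 (−0.65). All 12 muscle contraction markers fell in the same arrays, with a median of −4.28, and their part in this was not tested.

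The last list held IGF2 mRNA-binding proteins and genes of the imprinted growth network, to which Igf2 belongs. Of 5 tested genes, 4 were lower and 1 not called (median −1.53). Ndn, which encodes necdin, averaged 7.41 ± 0.67 (SD, n = 7) in tumours and 10.44 ± 0.14 (SD, n = 5) in normals, an 8.14-fold fall (limma adjusted p = 1.63e-06). Cdkn1c, the cyclin-dependent kinase inhibitor p57, averaged 8.45 ± 0.78 (SD, n = 7) in tumours and 11.44 ± 0.11 (SD, n = 5) in normals, a 7.97-fold fall (limma adjusted p = 5.25e-06). Decorin, Dcn, a matrix proteoglycan that is also a fibroblast marker, fell by 1.53. Dlk1, a membrane protein of immature cells, was above background in 5 of 5 normals and in 0 of 7 tumours, and was at least 1.40-fold lower in tumours. Both Igf2bp3 probes were not above background on any array, and that of Igf2bp1 only on 1 tumour.

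**Figure D4:**
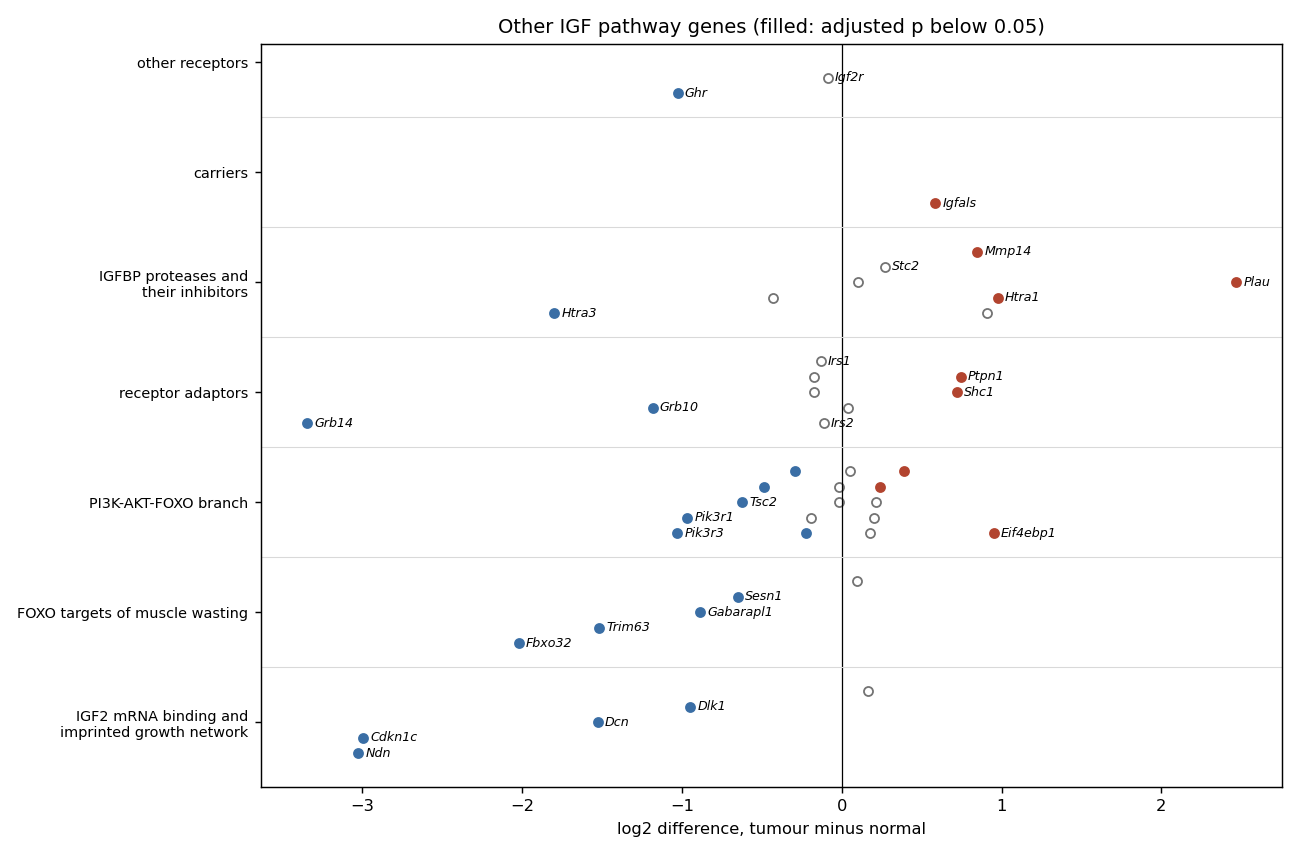
Tumour minus normal log2 difference (horizontal axis) of the 46 tested genes in the 7 pathway lists (rows), filled where the adjusted p was under 0.05 (red higher, blue lower) and open where it was not; vertical position within a row has no meaning. Ndn at −3.02 and Cdkn1c at −2.99 lie far to the left and Plau at 2.47 far to the right, while Grb14, at −3.35, was above background in only 2 of 7 tumours.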

How the data were processed

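RNA of 7 tongue tumours and 5 normal tongues was hybridised to Illumina bead arrays, 1 per piece. The deposited values are on a log2 scale, 1 column per sample for 25697 probes. The base was inferred from their range, and every array has the same median of 6.55 but other quartiles, so they were scaled without a quantile step. The submitters' processing notes name BeadStudio and Partek 6.6 without roles, and background correction is not given in the sources used here. A second table was not used, because no label matches any of its 24 columns of per-sample values.

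Linear values were recovered from the log2 values, corrected with normexp (offset 50), quantile normalised and put in log2. Background on each array was the mode plus 1.64 SD of the side below it, which leaves a tail of 5%. Probes above it on at least 5 arrays were kept, 15694 (61.1%). The number of arrays limits precision. Groups were compared with limma 3.58.1 in R 4.3.3 (lmFit, eBayes, two-sided, Benjamini-Hochberg over the probes kept, threshold 0.05), checked on simulated data. Of the probes, 23978 carry 1 symbol and 1719 none, and 23962 matched the RefSeq table (GRCm38.p6) by gene ID. Figures used matplotlib 3.10.9. A bound sets a group below background at the lowest signal called above it.

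The members and lists were chosen with earlier results of these data known. Named were all member probes, 15 pathway genes listed by name where measured, up to 4 further called genes per pathway list by size of change, and up to 3 nearest genes per member. Alternatives covered background correction, scaling, the filter, the test, the replicate number as a block, and left-out arrays.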

Additional observations from a re-analysis of the deposited data

Results flagged for a closer look

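Single arrays that stood apart from the rest of their group were sought among the 11 tested probes in 22 groups of arrays. Chance flags about 1 group in 20, and 4 were found. The groups share the same arrays and are not independent, and all flags but that of tumour 7 fall on normal 1. Tumour 7 had the highest Igf1r signal, 8.32, where the next tumour had 7.69. Normal 1 had the lowest Igfbp2 signal by both probes, 10.31 by ILMN_1236788 and 10.53 by ILMN_2930897, where the next normals had 11.15 and 11.08. Normal 1 also had the lowest Igfbp6 signal among normals, 9.89, with the next at 10.33. Normal 1 had the highest mean of the salivary gland markers, 13.31, where the next normal had 7.69, and their part in these values was not tested. Without normal 1 the Igfbp2 differences were 0.01 and −0.02, neither called, and that of Igfbp6 was −2.43, still called.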

How the results depend on the processing

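Igf1, Igf2, Igfbp3, Igfbp5, Igfbp6 and the Igfbp4 probe ILMN_2694955 kept their direction and their call under all alternatives run. Over the 12 left-out arrays the differences ran from −0.63 to −0.50 for Igf1, −1.87 to −1.52 for Igf2, 2.00 to 2.22 for Igfbp3, −2.43 to −1.88 for Igfbp5 and −2.43 to −2.19 for Igfbp6. Igfbp7 lost its call only under centring on 18 probes of reference genes (0.22), with 0.40 under cyclic loess and 0.62 to 0.78 over the left-out arrays. That centring moved the median of all probes to −0.34, gave 1602 probes higher and 8323 lower against 5101 and 3583, 1 IGF-axis probe higher against 2, and 28 pathway genes lower against 18. Higher calls were 58.7% of all calls here, 47.5% under cyclic loess and 16.1% under that centring. It also turned Igf1r to −0.0922, the Igfbp2 probes to −0.16 and −0.25, and Stc2 to −0.14. The 12 reference genes listed were Actb, Gapdh, Hprt, Tbp, Ppia, Rplp0, Polr2a, Ywhaz, Sdha, Gusb, B2m and Pgk1. Actb itself was called, with probes higher by 1.72, 1.17 and 0.91 and others at −1.34 and −1.45. The list was thus not unchanged between the groups. Relative to the moved median, Igfbp7 was 0.56 up and Igfbp3 2.10 up. Centring moves all probes of an array alike, so these relative values cannot test what the centring does.

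Igf1r was called with array weights (0.30) and in the unadjusted exact permutation test (0.32), and ran from 0.21 to 0.35 over the left-out arrays. The Igfbp4 probe ILMN_1258988 was called under cyclic loess (−0.90), centring on reference genes (−1.07), centring on the 75th percentile (−0.70) and array weights (−0.60). It was also called without normal 1 and tumour 2 together (−0.82), and ran from −0.84 to −0.57 over the left-out arrays. The mean over both Igfbp4 probes, which includes the called ILMN_2694955, was called (−0.79). The Igfbp2 probe ILMN_2930897 was −0.0782 under cyclic loess and ran from −0.0234 to 0.23 over the left-out arrays. Irs2 was 0.0268 when blocked on the replicate number and ran from −0.209 to 0.0211 over the left-out arrays, above 0 without tumour 6. The cause of these changes was not tested. With the replicate number as a block over 5 tumours and 5 normals, Igfbp4 by ILMN_2694955 was −0.71 and all IGF-axis calls were as without it. The labels do not say that the numbers pair the samples. Same-numbered arrays correlated at −0.38 to 0.10 in their deviations. With 5 shared numbers and groups that were treated differently, this cannot decide whether the samples are paired.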
